A study of Mus musculus with 8 samples.

Results

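Nos2 and Arg1 encode the pair of macrophage enzymes that compete for arginine, and acetylated histone H3 (H3ac) peaks were examined at both loci in the mouse macrophage-like cell line RAW 264.7. The peak lists carry no gene names, so the loci were taken as fixed windows on mouse build GRCm39: Nos2 as chromosome 11 from 78800000 to 78855000 and Arg1 as chromosome 10 from 24785000 to 24815000. Of the 193863 peaks that the 4 library lists hold on chromosomes, 13 lay in these windows, 10 at Nos2 and 3 at Arg1. Merged across lists at an overlap of at least 1 bp they formed 8 of 81544 regions, 6 at Nos2 and 2 at Arg1.

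Nos2 (gene ID 18126) encodes inducible nitric oxide synthase, which makes nitric oxide from arginine and is switched on in macrophages by bacterial products and interferon gamma. Arg1 (gene ID 11846) encodes arginase-1, which splits arginine into ornithine and urea and is switched on by interleukin-4. High Nos2 is a usual sign of the inflammatory macrophage state and high Arg1 of the alternative, repair-associated state. Acetylated H3 marks active promoters and enhancers, so a peak near either gene is a sign of an active regulatory element, not a measure of its transcript.

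The groups were RAW 264.7 cells labelled Gel and RAW 264.7 cells labelled CuNZ@Gel, with 2 immunoprecipitated libraries each. CuNZ@Gel is the nanozyme hydrogel of a study on diabetic wounds. The protocol text common to all samples describes a 48 h exposure to extracts, names those of CuNZ@Gel only, and lists no untreated cells. Whether libraries with the same label are from separate cultures is not stated, so every p-value compares these libraries only, and their spread may be technical. The comparison asks how H3ac at each gene differs between the treatments.

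The CuNZ@Gel lists had a lower background, and the lists hold no read totals. The background that occurred most often in a list was 4.62 and 4.28 fragments for Gel replicates 1 and 2, against 3.45 and 2.46 fragments for the CuNZ@Gel replicates in the same order. The 4 lists held 58612, 60483, 40075 and 34693 peaks. This background, which rises with read depth and fragment length, is the scale for summit heights below. At that background the fewest summit fragments called were 13 and 12 in the Gel lists and 11 and 9 in the CuNZ@Gel lists. These correspond to 2.81, 2.80, 3.19 and 3.66 times background, so a summit had to stand higher over background to be listed in CuNZ@Gel.

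Both windows carried less called H3ac in CuNZ@Gel than in Gel. The Nos2 window had 3 peaks in Gel replicate 1 and 4 in Gel replicate 2, against 2 in CuNZ@Gel replicate 1 and 1 in CuNZ@Gel replicate 2. The Arg1 window had 2 and 1 peaks in Gel and 0 and 0 in CuNZ@Gel. One Nos2 region had a peak in all 4 libraries, while no Arg1 peak was listed in either CuNZ@Gel library. All 13 peaks were of weak to middling strength, with folds between 2.65 and 5.52. The fold, taken from column 7 of the lists, is the authors' own value of each peak's summit over its local background, and its median was 3.92, 3.78, 4.50 and 4.92 over the 4 whole lists in the same order.

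**Figure D1:**
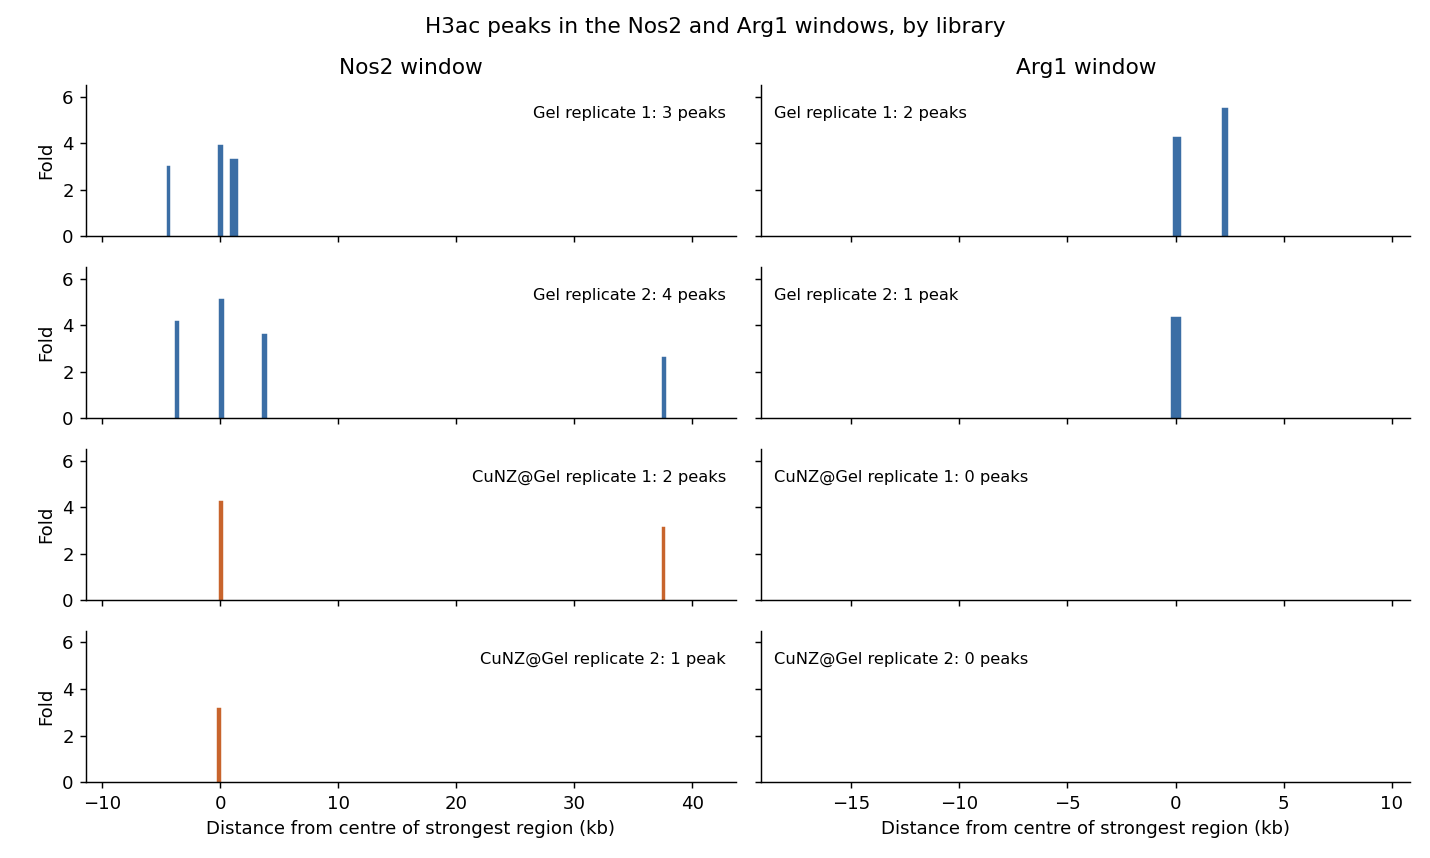
H3ac peaks in the Nos2 window (left) and the Arg1 window (right), with 1 row per library. Bars span each peak from start to end and their height is the fold; the x axis is the distance in kb from the centre of the strongest region of that window with peaks in both Gel libraries. The bar at 0 is present in all 4 libraries at Nos2 and in the Gel libraries only at Arg1.

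The main Nos2 region lay on chromosome 11 from 78811108 to 78811558. In Gel replicate 1 its peak was 313 bp wide with a fold of 3.92, a −log10 q of 6.16 and its summit at 78811394. The Gel replicate 2 peak was 359 bp wide with a fold of 5.11, a −log10 q of 10.41 and its summit at 78811327. In CuNZ@Gel replicate 1 the peak was 230 bp wide with a fold of 4.27, a −log10 q of 5.87 and its summit at 78811349. The CuNZ@Gel replicate 2 peak was the weakest, 221 bp wide with a fold of 3.18, a −log10 q of 2.03 and its summit at 78811161. It rested on 10 summit fragments, 1 more than the fewest called in that list, whereas the others had 21, 26 and 18. No annotation of GRCm39 was used here, so distances to the Nos2 start site are not given.

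In width the main Nos2 region differed between the groups, and in strength the groups overlapped. Its covered width averaged 336.0 ± 32.5 bp for Gel against 225.5 ± 6.36 bp for CuNZ@Gel (SD, n = 2 each), and both CuNZ@Gel peaks were narrower than both Gel peaks. The exact two-sided permutation p was 0.333, the smallest that 2 against 2 libraries allow. Of the 21909 regions with peaks in all 4 libraries, 74.5% had this same order of widths, so this order is the common one. Summit height, in multiples of the library background, was 4.55 and 6.07 in Gel and 5.22 and 4.07 in CuNZ@Gel. The difference of -0.67 (exact two-sided permutation p = 0.667) was smaller than the SD of 1.08 in Gel and of 0.815 in CuNZ@Gel. Without Gel replicate 2 it was 0.10, in the opposite direction, without Gel replicate 1 it was -1.43, without CuNZ@Gel replicate 1 it was -1.25 and without CuNZ@Gel replicate 2 it was -0.09.

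The place of the main Nos2 summit was stable in 3 libraries. The summits of both Gel libraries and of CuNZ@Gel replicate 1 fell within 67 bp of each other. That of CuNZ@Gel replicate 2 lay 166 to 233 bp away from them. The 4 peaks had 48 bp in common, from 78811281 to 78811328, and this stretch is also the Nos2 interval of the authors' CuNZ@Gel group list. Among the 2668 other regions with peaks in all 4 libraries and a like Gel fold, the median distance from the lowest to the highest summit was 231 bp, with quartiles of 125 and 400 bp. The 233 bp at Nos2 was thus close to the median.

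The main Nos2 region was set against regions of like Gel fold. Its mean Gel fold was 4.51, and like regions were those with peaks in both Gel libraries and a mean Gel fold from 4.06 to 4.97, within 10%. Of 6187 such regions, 43.1% had a peak in both CuNZ@Gel libraries, 34.8% in 1 and 22.1% in neither (95% exact binomial interval 21.1% to 23.2%, counting error only). The share with neither depended on the setting and was the largest outcome in some. It was 55.3% with peaks of a −log10 q of at least 5 and 51.7% without Gel replicate 2. For Gel replicate 1 peaks of like fold with 50% overlap, whether or not called in Gel replicate 2, it was 69.7%. Without CuNZ@Gel replicate 1 it was 47.1%, below the 52.9% with a peak in CuNZ@Gel replicate 2. Over all 39317 regions called in both Gel libraries, 55.7% had a peak in both CuNZ@Gel libraries and 24.9% in neither. CuNZ@Gel width at Nos2 was 67.1% of Gel width, where the like regions with peaks in all 4 libraries had a median of 59.7% with quartiles of 45.2% and 76.9%. The fold in CuNZ@Gel replicate 1 was above that of 55.1% of these regions, and the fold in CuNZ@Gel replicate 2 was above that of 4.9% of them.

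**Figure D2:**
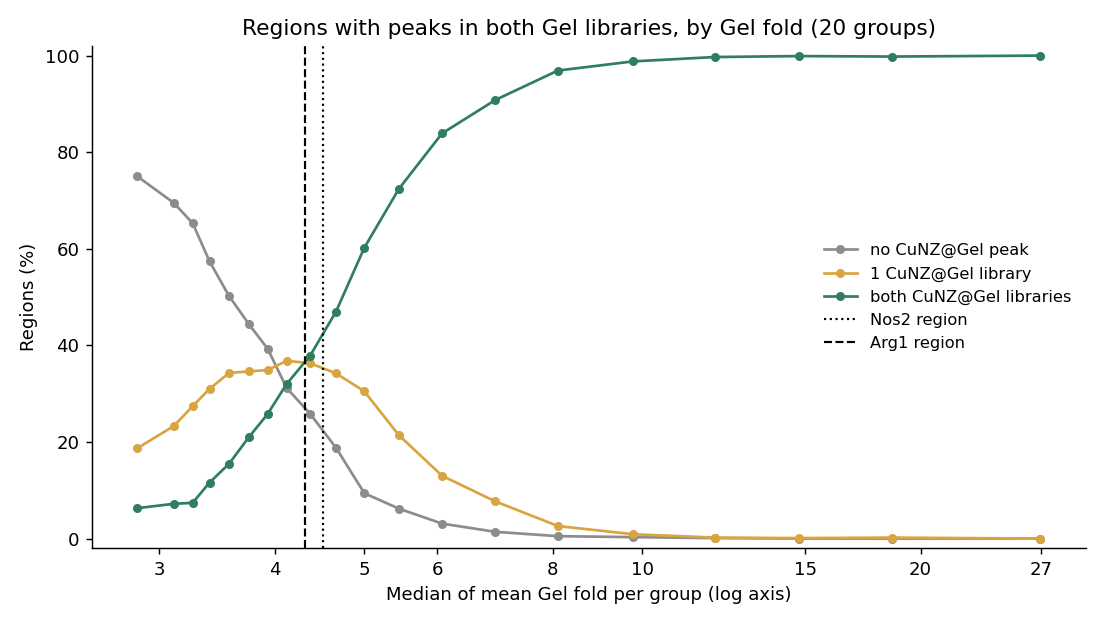
Share in percent of all regions called in both Gel libraries that had a peak in neither, 1 or both CuNZ@Gel libraries, in 20 groups of equal size by mean Gel fold (log x axis, median of each group). Vertical lines mark the Nos2 region at 4.51 and the Arg1 region at 4.31, in the range of fold where the share with no CuNZ@Gel peak falls and the share with both rises; at Nos2 the share with both is the highest of the 3.

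The other 5 Nos2 regions were each called in few libraries. A 179 bp peak from 78806842 with a fold of 3.03 was listed in Gel replicate 1 only, and a 219 bp peak from 78807546 with a fold of 4.16 in Gel replicate 2 only. Their centres lay 4.40 and 3.68 kb before that of the main region. On the other side, a 581 bp peak from 78812181 with a fold of 3.30 was listed in Gel replicate 1 only, and a 365 bp peak from 78814856 with a fold of 3.60 in Gel replicate 2 only. The 581 bp peak had the highest local background of all 13, 1.56 times that of its library, where the other 12 were at 1.00. Each Gel library thus had peaks on both sides of the main region, but at different positions.

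How often such peaks stood alone varied with their fold. Of peaks with a like fold in the same list, 51.6% of those like the first, 15.2% like the second, 42.7% like the third and 32.0% like the fourth overlapped no peak of any other list. In all, 4 of the 6 Nos2 regions and 1 of the 2 Arg1 regions were called in 1 library only, where the share over the whole series was 46.1%. The remaining Nos2 region, 37.55 kb after the main one, was called in Gel replicate 2 and in CuNZ@Gel replicate 1. Its peaks were 218 and 183 bp wide with folds of 2.65 and 3.15, each on 13 summit fragments, which is 1 and 2 above the fewest called in those lists. It is the one region of either window in which 1 library of each group had a peak and the other did not.

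Over the whole Nos2 window, peaks covered 1073 bp in Gel replicate 1 and 1161 bp in Gel replicate 2, against 413 bp in CuNZ@Gel replicate 1 and 221 bp in CuNZ@Gel replicate 2. The means were 1117 ± 62.2 bp for Gel against 317 ± 136 bp for CuNZ@Gel (SD, n = 2 each), a difference of -800 bp or 28.4% of the Gel mean left. Both CuNZ@Gel values lay below both Gel values, and the exact two-sided permutation p was 0.333, the smallest possible. Of 15078 tiles of 55 kb with peaks in both Gel libraries, 87.8% had this order, and the median tile kept 53.8% of its Gel width. The main region supplied -110.5 bp of the difference, 13.8% of it, and the regions called in at most 1 Gel library supplied -689.5 bp, 86.2%. Peak number was 3.5 ± 0.707 in Gel and 1.5 ± 0.707 in CuNZ@Gel (SD, n = 2 each; exact two-sided permutation p = 0.333).

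**Figure D3:**
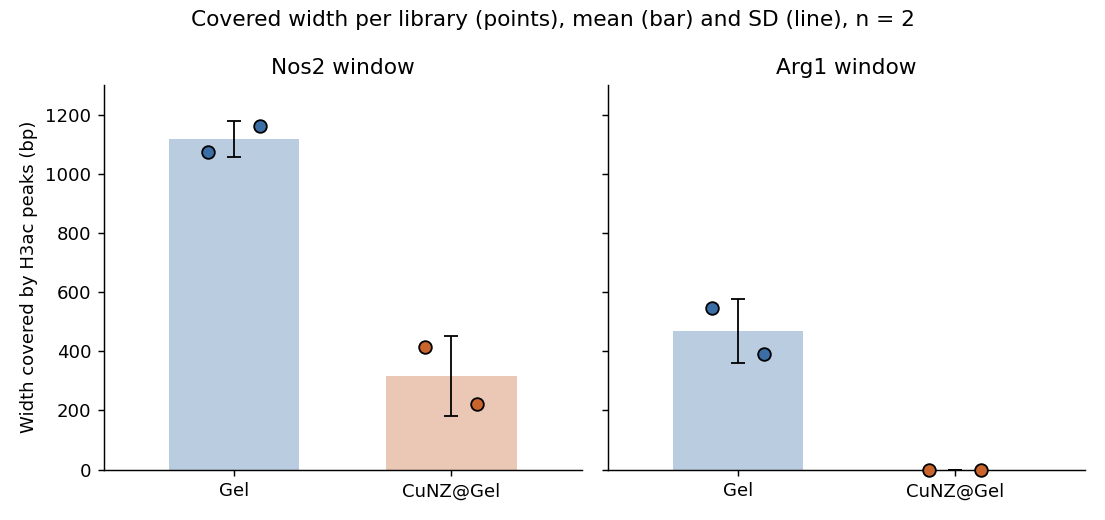
Width in bp covered by H3ac peaks in the Nos2 window (left) and the Arg1 window (right). Points are libraries, bars are means and lines are SD (n = 2 per group); the CuNZ@Gel points lie below the Gel points in both windows, at 413 and 221 bp for Nos2 and at 0 bp for Arg1.

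At Arg1, the main region lay on chromosome 10 from 24803935 to 24804353 and was called in both Gel libraries alone. The Gel replicate 1 peak was 321 bp wide with a fold of 4.27, a −log10 q of 7.53, 23 summit fragments and its summit at 24804156. The Gel replicate 2 peak was 392 bp wide with a fold of 4.35, a −log10 q of 7.40, 22 summit fragments and its summit at 24804189. The summits were 33 bp apart and the peaks shared 294 bp, so the Gel libraries were alike here in place, width and strength. No CuNZ@Gel library had a peak anywhere in the window.

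The Arg1 region was compared with regions of like Gel fold in the same way. The mean Gel fold of the Arg1 region was 4.31, and of 6697 other regions from 3.88 to 4.74 there were 28.2% with no CuNZ@Gel peak (95% exact binomial interval 27.1% to 29.3%, counting error only), 36.1% with a peak in 1 library and 35.7% in both. The share with none was 62.7% with peaks of a −log10 q of at least 5, 60.1% for Gel replicate 1 peaks with 50% overlap and 53.6% without CuNZ@Gel replicate 1. The Arg1 and Nos2 regions were thus of similar Gel fold, at the 41.6 and 45.5 percentile of all regions called in both Gel libraries, and differed in outcome, with no peak and with a peak in both CuNZ@Gel libraries. Like regions with a peak in both CuNZ@Gel libraries were wider in Gel than the Arg1 region, with medians of 608 and 603 bp in Gel replicates 1 and 2 against 321 and 392 bp. The main Nos2 region was narrow in the same way, 313 and 359 bp against 650 and 649 bp.

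Summit heights at Arg1 were set beside the counts that could go unlisted in CuNZ@Gel. Summit height in Gel was 4.98 times background (95% Poisson interval 3.16 to 7.47) and 5.14 times (3.22 to 7.78). The region was picked because both Gel lists called it, so its Gel heights may be too high, and no correction was made. At the mean Gel height of 5.06, a summit would hold 17.5 fragments in CuNZ@Gel replicate 1 and 12.4 in CuNZ@Gel replicate 2. Both lie above the 10 and 8 fragments that were the most to go unlisted at library background, 2.90 and 3.25 times it. The 95% Poisson intervals of those counts reach 5.33 and 6.41 times background and overlap those of the Gel summits, taking each library singly. The difference over both CuNZ@Gel libraries together was not tested. Both Gel peaks would still pass a shared limit of 3.41 on −log10 p when their counts are scaled to the library of lowest background. This scaling adds no counting error, so it does not show whether a library of that background would list them. The intervals cover counting error only, and a caller can also drop a summit for its width, which was at least 156 and 160 bp in the CuNZ@Gel lists.

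**Figure D4:**
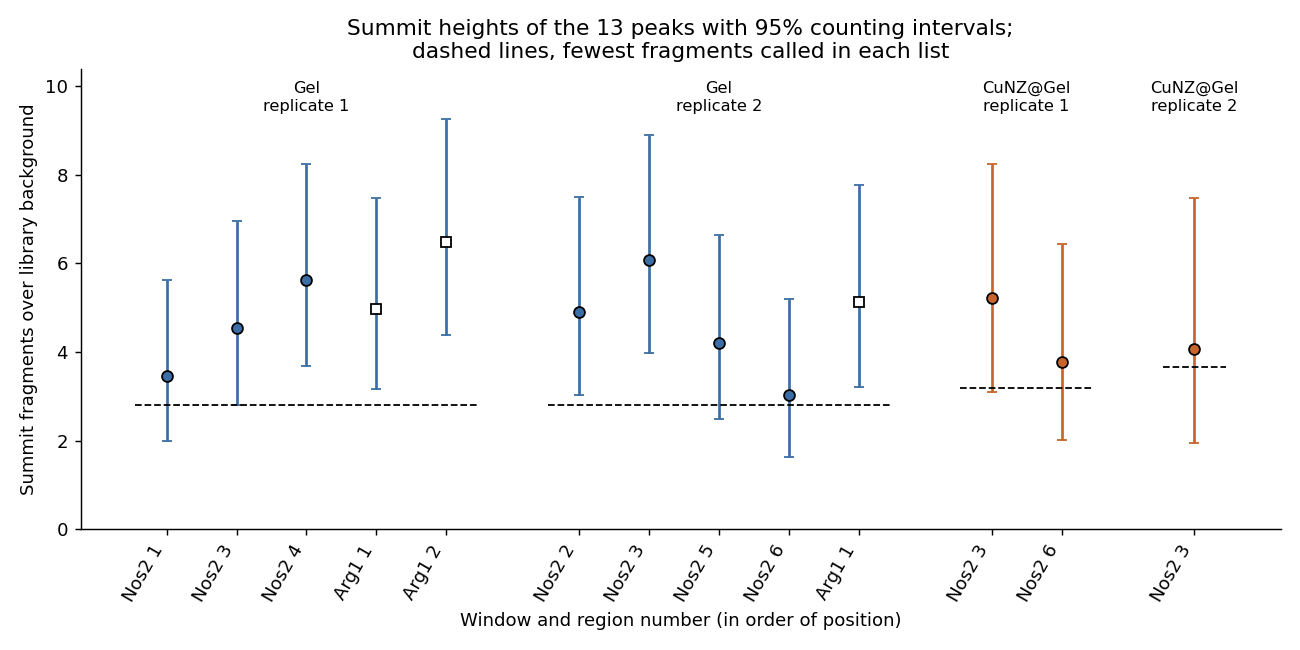
Summit fragments over library background for all 13 peaks of the Nos2 (circles) and Arg1 (open squares) windows, by library, with regions numbered in order of position and lines for 95% Poisson counting intervals. Dashed lines mark the fewest fragments called at background in each list, from 2.80 times background in Gel replicate 2 to 3.66 times in CuNZ@Gel replicate 2; all 13 intervals overlap each other.

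The strongest peak of both windows was a narrow one seen in a single library. It lay 2.24 kb after the main Arg1 region, from 24806276 to 24806500, in Gel replicate 1 only, 225 bp wide with a fold of 5.52, a −log10 q of 12.87 and 30 summit fragments, 6.49 times background (95% Poisson interval 4.38 to 9.27). In Gel replicate 2 a summit of up to 11 fragments, 2.57 times background, could go unlisted, with an interval up to 4.60 times. Of the 5070 other Gel replicate 1 peaks of like fold, 97.1% overlapped a Gel replicate 2 peak, 82.3% and 69.7% overlapped a peak of CuNZ@Gel replicates 1 and 2, and 1.5% overlapped no other list. Only 3.1% of them were narrower. By contrast, 84.0% of Gel replicate 1 peaks with the fold of the main Arg1 region overlapped a Gel replicate 2 peak, as that region did.

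Over the whole Arg1 window, peaks covered 546 bp in Gel replicate 1 and 392 bp in Gel replicate 2, against 0 bp in both CuNZ@Gel libraries. The Gel mean was 469 ± 109 bp (SD, n = 2), and the exact two-sided permutation p of the -469 bp difference was 0.333, the smallest possible. Of 20443 tiles of 30 kb with peaks in both Gel libraries, 86.1% had lower widths in both CuNZ@Gel libraries and 12.4% had no peak in either. The latter share was 9.27% for the 55 kb tiles of the Nos2 comparison. Peak number in the Arg1 window was 1.5 ± 0.707 in Gel (SD, n = 2) against 0 (exact two-sided permutation p = 0.333).

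In Gel, both windows were less covered by peaks than the median tile with peaks in both Gel libraries. Peaks covered 2.03% of the Nos2 window and 1.56% of the Arg1 window in Gel, where such tiles of the same length had medians of 3.43% and 4.67%. Tiles without peaks in both Gel libraries were left out, so this is no comparison with the whole genome. The Gel width at Nos2 exceeded that of 34.7% of such tiles and at Arg1 that of 16.7%. The nearest regions outside the windows with peaks in all 4 libraries lay 32.3 kb before the main Nos2 region and 63.6 kb after it. The region before had folds of 6.41 and 6.62 in Gel and 5.85 and 7.23 in CuNZ@Gel. Its widths were 901 and 996 bp in Gel and 431 and 306 bp in CuNZ@Gel. The region after had folds of 4.27 and 5.30 in Gel and 3.82 and 3.47 in CuNZ@Gel. Its widths were 354 and 467 bp in Gel and 163 and 261 bp in CuNZ@Gel. At Arg1 they lay 57.2 kb before the main region, with folds of 10.51 and 10.06 in Gel and 8.10 and 7.81 in CuNZ@Gel, and 368.0 kb after it. Regions called in both treatments thus lay on either side of both windows. The coding genes next to Nos2 are Lyrm9 and Lgals9 and those next to Arg1 are Med23 and Akap7, by their order in a RefSeq table of build GRCm38.

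Fitted across the genome, no bin of either window passed the threshold. Covered width was compared in 68188 bins of 4 kb with limma, which called 0% of bins lower and 0% higher after CuNZ@Gel with Benjamini-Hochberg adjustment at 0.05, and 23.7% lower at an unadjusted p under 0.05. The 4 Nos2 bins tested had adjusted limma p-values from 0.131 to 0.927. The smallest belonged to the bin from 78812001 to 78816000, with 581 and 365 bp in Gel and 0 in CuNZ@Gel (-473 bp, SE 126, limma adjusted p = 0.131). Its Gel widths come from peaks at different places. The bin with the main Nos2 region differed by -110.5 bp (SE 107, limma adjusted p = 0.433). At Arg1, the bin from 24804001 to 24808000 had 546 and 326 bp in Gel and 0 in CuNZ@Gel (-436 bp, SE 126, limma adjusted p = 0.146). These 2 were the window bins, of 6 tested, that had an unadjusted limma p under 0.05 and were lower in CuNZ@Gel, to be read against the 23.7% over all bins.

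Regions elsewhere with the same pattern of covered width were easy to find. Likeness was the Euclidean distance of log2(width + 1) over the 4 libraries. The closest to the main Nos2 region were on chromosome 12 from 98249573 to 98249931, on chromosome X from 52000652 to 52000983 and on chromosome 19 from 45296157 to 45296520, at distances of 0.15, 0.16 and 0.19. The closest to the main Arg1 region, on chromosome 11 from 53700121 to 53700544, was at a distance of 0.01, with 324 and 393 bp for Gel and 0 bp for CuNZ@Gel.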

How the data were processed

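The values are H3ac peaks of 4 libraries. MACS2 2.2.8, deepTools 3.5.6, SAMtools 1.17 and fastp are named, with build GRCm39, per the submitters' processing notes. How reads were aligned and which options the caller had is not stated in these sources. Each deposited library list holds for every peak the score, the fold ratio against background, and −log10 values of p and q. The deposited group lists equal the intersections of the library lists in 100% of intervals. Input libraries were not analysed here.

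Fold and p were solved for whole summit fragments and a background (relative tolerance 0.0001), which succeeded for 99.65% to 99.99% of peaks. Windows were compared by exact permutation tests and 4 kb bins by limma 3.58.1 (trend, robust, R 4.3.3) with Benjamini-Hochberg adjustment, checked on simulated data. The simulated widths had normal noise, whereas real widths rise by whole peaks, so the check does not show how the fit behaves on these data. Like regions have a mean Gel fold within 10%. Alternatives were list threshold, list length, depth, bin size, likeness and libraries left out. Those of threshold, list length and depth drop whole peaks and leave the widths of the others as deposited. Covered width was thus not adjusted for background. The named items are all peaks of the windows, the strongest region of each and the 3 regions most like it (for Arg1 only the first is given). Arginine metabolism genes, cell type markers and promoter motifs were planned but need an annotation of GRCm39 or a promoter entry, and were not analysed here. Nos2 and Arg1 were chosen with earlier results of these data known. Summit heights and the main Nos2 region's width and fold were compared as additions after the data were seen.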

Additional observations from a re-analysis of the deposited data

How the results depend on the processing

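The lower covered width and peak number of both windows in CuNZ@Gel kept their direction in all settings run, but many settings could not reverse it. Both CuNZ@Gel values lay below both Gel values, so neither leaving out 1 library nor the replicate block could change the direction. At Arg1, with 0 peaks in CuNZ@Gel, settings that only remove peaks could not either. CuNZ@Gel minus Gel in the Nos2 window was -800 bp as deposited and -621 bp at a −log10 q of at least 5. It was -896 to -704 bp without any 1 library. Nos2 peak number differed by -2, and by -2.5 to -1.5 without any 1 library. With lists of equal length or counts scaled to the lowest background, width and number differed by -601.5 bp and -1. The latter had an exact permutation p of 0.667, with 2 peaks in Gel replicate 1 and in CuNZ@Gel replicate 1. Both settings only drop peaks, and kept peaks keep full width. At a −log10 q of at least 5 the main Nos2 region lost its CuNZ@Gel replicate 2 peak. Arg1 differed by -469 bp and -1.5 peaks in every setting that kept all libraries, and by -546 to -392 bp and -2 to -1 without any 1 library. The replicate block gave the same differences, with a smallest possible p of 0.5.

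The share of like regions with no CuNZ@Gel peak was not stable. For Nos2 it was 22.1%, and 27.4% within 20% of the fold, 69.7% for Gel replicate 1 peaks with 50% overlap, 55.3% at a −log10 q of at least 5 and 15.9% to 51.7% without any 1 library. For Arg1 it was 28.2%, 32.7%, 60.1%, 62.7% and 36.0% to 53.6% in the same order. Leaving out a CuNZ@Gel library could only raise the share, because regions with a peak in that library alone then count as having none. Leaving out a Gel library changes the fold that sets which regions are like, and the cause of the other shifts was not tested.

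The 4 kb bins gave 0 calls lower and 0 higher in limma (16254 with an unadjusted p under 0.05), with 2383 and 3 in 10 kb bins, 4761 and 19 among bins averaging 500 bp or more, and 11123 and 32 with the replicate block, whose libraries are not known to pair (correlation of deviations 0.00919 over bins). None of these called a window bin, but no window bin averaged 500 bp or more, so that setting could not call one. With 1 library left out there were 0 to 21376 lower calls and 0 to 84 higher calls. Both fits with 1 Gel library called window bins of both genes lower, amid many calls elsewhere. They assume that this library varies like the CuNZ@Gel pair, and the cause was not tested. The height difference of the main Nos2 region ranged from -1.43 without Gel replicate 1 to 0.10 without Gel replicate 2.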
